A study of Mus musculus with 42 samples.

Results

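Blood of 13 mice of the 42 in the series was compared here, 8 3xTg-AD mice after transcranial direct current stimulation (tDCS) with the electrode over the hippocampus and 5 3xTg-AD mice after sham stimulation with the same electrode. All mice of this strain with this electrode were taken, at an age of 6 months (6 mo.), and none was chosen by a measured value. The tDCS mice are M, N, Q, T, Z, AL, AM and AN, and the sham mice are O, P, R, S and AQ. All 13 were male and carry the mutant genes of the 3xTg-AD line, human APP and MAPT among them, in tDCS and sham mice alike. Each had an electrode cemented to the skull under ketamine and xylazine some days before. The tDCS mice received 3 sessions of 20 min of anodal current, 1 a day and awake, and the sham mice the same handling without current. Blood was drawn shortly after the stimulation, and each library is the whole blood of 1 mouse. Where they help to place a result, 10 3xTg-AD mice with a prefrontal electrode (6 tDCS and 4 sham, with more and shorter sessions) and 9 C57BL/6 mice with the hippocampal electrode (3 tDCS, 6 sham), all 6 mo. and none among the 13, are set beside them.

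tDCS passes a weak constant current between an electrode on the head and a second one on the body, and shifts the membrane potential of neurons under the electrode without making them fire by itself. Blood cells lie outside that field for the most part, and their RNA can follow hormones, nerves of the autonomic system and the traffic of cells between marrow, vessel wall and blood. Whole blood RNA comes mainly from reticulocytes, which carry haemoglobin mRNA, from platelets, and from white cells such as neutrophils, monocytes and lymphocytes. In such a mixture, fewer cells of a type and less RNA per cell cannot be told apart.

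Libraries held 14950841 to 37747255 reads on genes and 13642 to 15251 genes with a read. None of 5 measures of library quality passed an exact permutation test over mice between the groups (two-sided, 1287 splits, smallest possible p 0.00155). The largest gap was in the share of reads on 9 haemoglobin genes, which was 32.2% ± 10.4 after tDCS (SD, n = 8; 17.5% to 44.6%) and 22.6% ± 5.26 in sham mice (SD, n = 5; 16.9% to 30.7%; exact permutation p = 0.0847, adjusted p = 0.350 over the 5 measures). The summed markers of neutrophils, monocytes, B, T and NK cells, platelets and erythroid cells were above 0 in every mouse. 2 libraries went against their strain label at 1 gene. Npy, a neuropeptide gene whose reads separate the strains of this series, had 0 reads in sham mouse AQ and 3 in tDCS mouse AM, and 3395 to 12106 reads in the other 11 mice, while the other 13 genes checked were on the side of 3xTg-AD mice in AQ and AM. Values without AQ and AM are given for several of the gene lists, not for all, and for Pabpc1.

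No gene passed the threshold with edgeR, where 0 of the 15599 genes tested (0%) had an adjusted p under 0.05, and the smallest adjusted p was 0.353. An unadjusted p under 0.05 was reached by 1392 genes (8.92%), 679 of them higher after tDCS (4.35%) and 713 lower (4.57%). DESeq2's likelihood ratio test, on the same mice, called 45 genes (0.288%), 20 higher (0.128%) and 25 lower (0.16%). In 51 genes every tDCS mouse lay above every sham mouse (0.327%) and in 43 every tDCS mouse lay below (0.276%). With the haemoglobin share as covariate 775 genes (4.97%) had an unadjusted p under 0.05, with name length as covariate 1636 (10.5%), in mice with names of 1 letter 1812 (11.6%) and without AQ and AM 1503 (9.64%). The median log2 fold change of all genes was 0.02 and the median SE 0.43. Differences below are therefore given as levels, log2 fold changes with their standard error (SE) and the calls of both tools, and are not named changes. Levels are CPM, the reads of a gene scaled to a common library size with TMM factors, sham values follow the order O, P, R, S and AQ, and positions are those of GRCm38.

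The genes with the smallest p among those higher after tDCS included regulators of white cells as well as genes of general cell functions. Jtb, a membrane protein with a role in cell division (chromosome 3 from 90231597 to 90235838), had the smallest p of all genes. It ranged from 9.70 to 14.9 CPM, with a median of 11.8, after tDCS, and was at 6.10, 4.27, 6.00, 6.42 and 6.17 CPM in the sham mice. All tDCS mice lay above all sham mice, a fold of 2.04 and a log2 fold change of 1.03 (SE 0.19), with an adjusted p of 0.353 from edgeR and 0.00053 from DESeq2. The sham mouse P, at 4.27 CPM, stood below the other 4. In fits that each left out 1 mouse, the log2 fold change stayed between 0.94 and 1.07.

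Arl11, a small GTPase of the ARF-like family that acts in macrophage activation (chromosome 14 from 61309753 to 61311936), ranged from 2.71 to 9.94 CPM, with a median of 4.98, after tDCS, and was at 1.89, 1.73, 1.64, 1.83 and 1.48 CPM in the sham mice. Its groups did not overlap, and Z was far above the other tDCS mice. The log2 fold change was 1.58 (SE 0.31), with an adjusted p of 0.353 with edgeR and 0.00326 with DESeq2. Fcgr3, a low-affinity receptor for IgG on phagocytes and NK cells (chromosome 1 from 171051174 to 171064935), ranged from 27.5 to 60.4 CPM, with a median of 38, after tDCS, and was at 15.9, 13.1, 21.2, 23.3 and 27.0 CPM in the sham mice. Again no tDCS mouse was as low as a sham mouse, and the log2 fold change was 1.02 (SE 0.24, adjusted p 0.353 with edgeR, 0.0234 with DESeq2). Clec4n, which encodes Dectin-2, a receptor for fungal sugars, ranged from 3.42 to 6.80 CPM, with a median of 4.51, after tDCS, and was at 2.10, 1.02, 1.19, 3.18 and 2.34 CPM in the sham mice, also without overlap and with a log2 fold change of 1.29 (SE 0.32).

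Srsf7, a splicing factor, ranged from 9.21 to 21.6 CPM, with a median of 14.8, after tDCS, and was at 4.58, 5.64, 8.22, 8.72 and 8.18 CPM in the sham mice, a log2 fold change of 1.06 (SE 0.23). The lowest tDCS mouse, AL, was close to the highest sham mouse. Mis18a, needed to load the centromeric histone, ranged from 6.42 to 15.8 CPM, with a median of 9.98, after tDCS, and was at 3.81, 6.30, 4.80, 4.13 and 5.31 CPM in the sham mice (log2 fold change 1.12, SE 0.26), again with the groups just apart. Mettl6, a tRNA methyltransferase, was low in all mice, 1.53 to 4.09 CPM after tDCS and 0.43 to 1.32 CPM in sham mice, with 30 to 123 and 9 to 44 reads. The zinc finger gene Zfp974 had 1 to 5 reads in sham mice and 9 to 65 after tDCS, so that its log2 fold change of 2.96 (SE 0.61) rests on few reads. Gm15832 and F630028O10Rik, without a known function, complete the 10 higher genes, with log2 fold changes of 2.0 and 1.44.

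**Figure D1:**
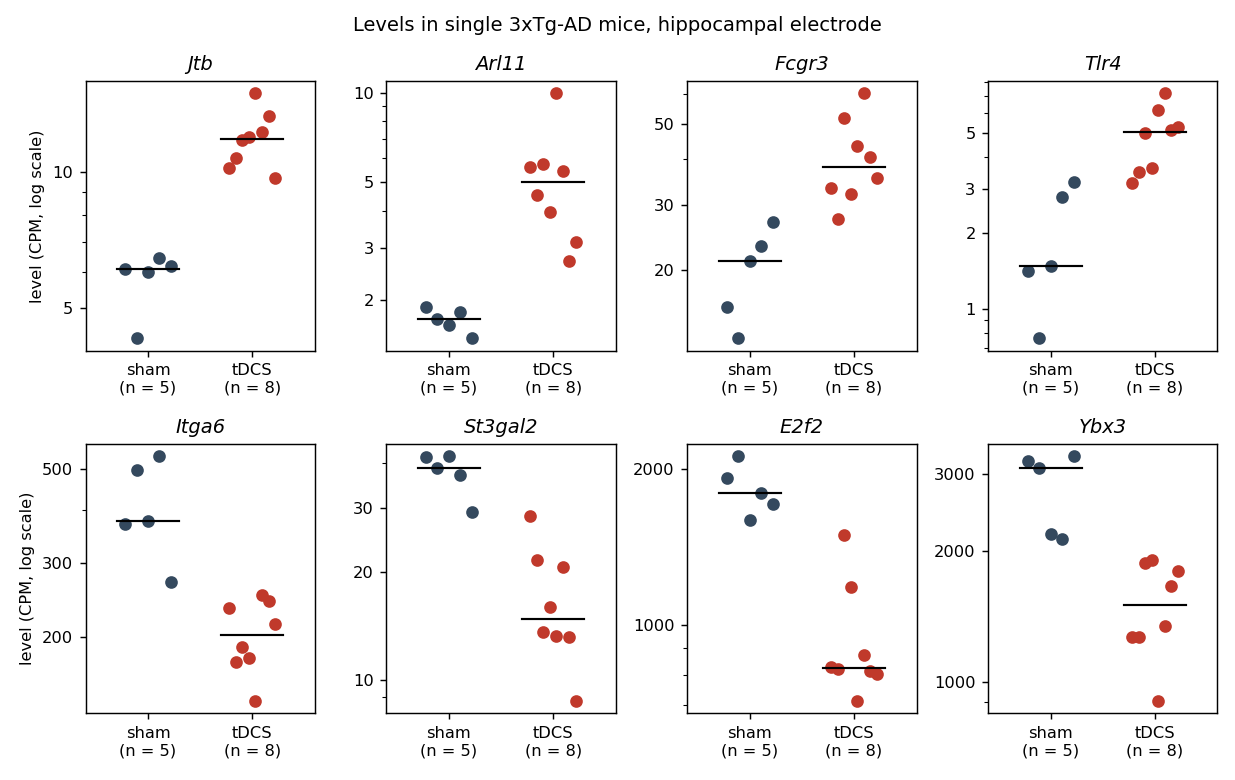
Levels of 8 genes in single 3xTg-AD mice with the hippocampal electrode, in CPM on a log axis, for 5 sham and 8 tDCS mice, with the median as a bar. In all panels except that of Tlr4, where a tDCS mouse at 3.16 CPM lies just under a sham mouse at 3.20 CPM, the groups do not overlap.

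Promoters of a few of these genes are shown because the genes separate the groups and differ in the cells that use them. Windows reach from 250 bases before to 50 after the start, from RefSeq on GRCm38.p6, whose start of Fcgr3 lies inside the annotated gene and whose start of E2f2 lies upstream of it, and capitals mark the matches to 3 motifs, searched on both strands, the GATA motif, written AGATAA, the ETS motif of PU.1 and other factors, written GAGGAA, and the E2F motif, written TTTGGCG. The windows of Arl11 (chr14:61309503-61309802, plus strand) and Fcgr3 (chr1:171059354-171059653, minus strand) each hold 1 ETS match, and that of E2f2, a gene lower after tDCS (chr4:136172024-136172323, plus strand), holds 2 E2F matches close to the start.
Arl11: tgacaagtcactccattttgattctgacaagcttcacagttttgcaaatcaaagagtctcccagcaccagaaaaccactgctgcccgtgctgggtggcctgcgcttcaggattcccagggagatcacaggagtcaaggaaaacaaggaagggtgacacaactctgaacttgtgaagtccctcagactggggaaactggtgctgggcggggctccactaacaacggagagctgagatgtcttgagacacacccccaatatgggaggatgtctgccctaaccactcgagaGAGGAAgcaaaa
Fcgr3: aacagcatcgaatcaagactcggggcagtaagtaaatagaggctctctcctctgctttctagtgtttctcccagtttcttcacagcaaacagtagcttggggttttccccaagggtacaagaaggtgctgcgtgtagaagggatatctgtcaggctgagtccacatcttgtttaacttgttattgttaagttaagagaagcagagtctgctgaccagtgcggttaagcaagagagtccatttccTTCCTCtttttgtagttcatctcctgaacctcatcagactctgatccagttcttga
E2f2: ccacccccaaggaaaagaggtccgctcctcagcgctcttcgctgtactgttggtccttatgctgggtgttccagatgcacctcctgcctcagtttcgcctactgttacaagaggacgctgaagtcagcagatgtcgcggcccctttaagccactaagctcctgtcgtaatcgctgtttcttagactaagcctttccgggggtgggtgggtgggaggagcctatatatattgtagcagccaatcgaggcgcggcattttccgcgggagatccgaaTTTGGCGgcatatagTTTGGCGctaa

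Over the 23 genes with a higher level that come from the smallest p or from the 25 genes described below, 20 had a window, and 10 of these held the ETS motif, against 28.3% of all 32851 windows. Of the 20 genes with a lower level, 12 had a window, and 3 of these held it. The GATA motif was in 2 of 20 and 0 of 12 windows, against 11.2% of all, and the E2F motif in 0 of 20 and 2 of 12 (16.7%), against 1.56%. These shares describe letters in a window, not binding.

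The 10 genes lower after tDCS with the smallest p are described next. Itga6, the laminin-binding integrin chain of platelets and lymphocytes (chromosome 2 from 71745616 to 71858416), ranged from 141 to 252 CPM, with a median of 202, after tDCS, and was at 372, 499, 378, 538 and 271 CPM in the sham mice. The groups did not overlap, and AQ was the sham mouse nearest to the tDCS mice. Its level was 2.02-fold lower, a log2 fold change of -1.01 (SE 0.21), with an adjusted p of 0.353 from edgeR and 0.00326 from DESeq2. E2f2, a cell cycle factor needed for the last divisions of erythroblasts (chromosome 4 from 136172394 to 136196057), ranged from 711 to 1492 CPM, with a median of 825, after tDCS, and was at 1925, 2124, 1594, 1796 and 1713 CPM in the sham mice. Here 6 of 8 tDCS mice lay between 711 and 875 CPM and Q and T were higher, still below every sham mouse, with a log2 fold change of -0.96 (SE 0.21, adjusted p 0.353 with edgeR, 0.00558 with DESeq2).

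St3gal2, a sialyltransferase of glycolipids and glycoproteins (chromosome 8 from 110919922 to 110972480), ranged from 8.74 to 28.5 CPM, with a median of 14.8, after tDCS, and was at 41.5, 38.9, 41.9, 37.2 and 29.3 CPM in the sham mice. Only M, at 28.5 CPM, came near the lowest sham mouse, AQ, and the log2 fold change was -1.16 (SE 0.24). Ehd4, an ATPase of endocytic recycling, ranged from 107 to 178 CPM, with a median of 123, after tDCS, and was at 246, 230.4, 225, 254 and 199 CPM in the sham mice (log2 fold change -0.79, SE 0.18). Nfix, a transcription factor of blood progenitors, ranged from 13.6 to 25.5 CPM, with a median of 18.3, after tDCS, and was at 36.8, 31.9, 38.3, 28.9 and 33.8 CPM in the sham mice (log2 fold change -0.84, SE 0.19). In both genes the groups were apart. DESeq2's adjusted p was 0.00558, 0.0116 and 0.0126 for the 3 genes, while edgeR's was 0.353 for each.

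Pabpc1, the main cytoplasmic poly(A)-binding protein (chromosome 15 from 36595661 to 36609668), had the highest level of the 20 genes with the smallest p. It ranged from 4327 to 13652 CPM, with a median of 9359, after tDCS, and was at 31170.4, 36471, 21541, 23420.3 and 10474 CPM in the sham mice. Sham mouse AQ lay within the tDCS range and the other 4 sham mice above it, for a log2 fold change of -1.52 (SE 0.33), or -1.74 without AQ and AM. Prrc2a, a reader of methylated RNA, likewise overlapped only through AQ, at 15.8 CPM against 34.6 to 48.1 CPM in the other sham mice and 7.99 to 22.4 CPM after tDCS (log2 fold change -1.11, SE 0.25). The RNA-binding coactivator Rbm14 ranged from 12.8 to 31.1 CPM, with a median of 23.2, after tDCS, and from 31.9 to 56.8 CPM in sham mice. The Notch target Hes5, with 0 to 9 reads after tDCS and 3 to 77 in sham mice, and Gm4673, antisense to Lsr, had the largest differences of the 10 lower genes, -2.97 (SE 0.68) and -2.10 (SE 0.48) on the log2 scale.

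Neither 3xTg-AD mice with the prefrontal electrode nor C57BL/6 mice with the hippocampal one gave a call with edgeR (0 of 15485 genes, 0%, and 0 of 15592, 0%). An unadjusted p under 0.05 was reached there by 1042 genes (6.73%) and 514 genes (3.3%), and DESeq2 called 8 genes (0.0517%) and 0 genes (0%). Of the 20 genes with the smallest p in hippocampal 3xTg-AD mice, 10 had the same sign with the prefrontal electrode (52.3% of all genes). Of these 10, 2 had an unadjusted p under 0.05 there (Arl11 and Gm15832). In C57BL/6 mice 12 of the 20 had the same sign (52.2% of all genes), 0 with such a p. Fcgr3 and Pabpc1, among the 20, are in the study's list described below, which the prefrontal mice helped to choose. Arl11 had a log2 fold change of 1.29 (SE 0.59) with the prefrontal electrode and 0.05 (SE 0.40) in C57BL/6 mice. For Jtb the values were -0.26 (SE 0.32) and 0.05 (SE 0.34), for Srsf7 -0.30 (SE 0.34) and -0.14 (SE 0.31), for St3gal2 0.40 (SE 0.41) and 0.40 (SE 0.29), and for Itga6 0.07 (SE 0.32) and -0.18 (SE 0.37).

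The difference between the electrodes was tested itself. With edgeR, 0 of 15607 genes (0%) differed in their tDCS effect between hippocampal and prefrontal mice at an adjusted p under 0.05, 1056 (6.77%) had an unadjusted p under 0.05, and DESeq2 called 1 gene (0.00641%). Between the strains, 0 of 15613 genes (0%) differed, 856 (5.48%) had an unadjusted p under 0.05, and DESeq2 called 0 (0%). Of the 20 genes, 10 had an unadjusted p under 0.05 for the electrode and 14 for the strain, from fits that hold the same 13 mice by which the genes were ranked. The smallest adjusted p among them was 0.587 for the electrode and 0.617 for the strain. Electrode site, number and length of sessions differ together and cannot be told apart.

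**Figure D2:**
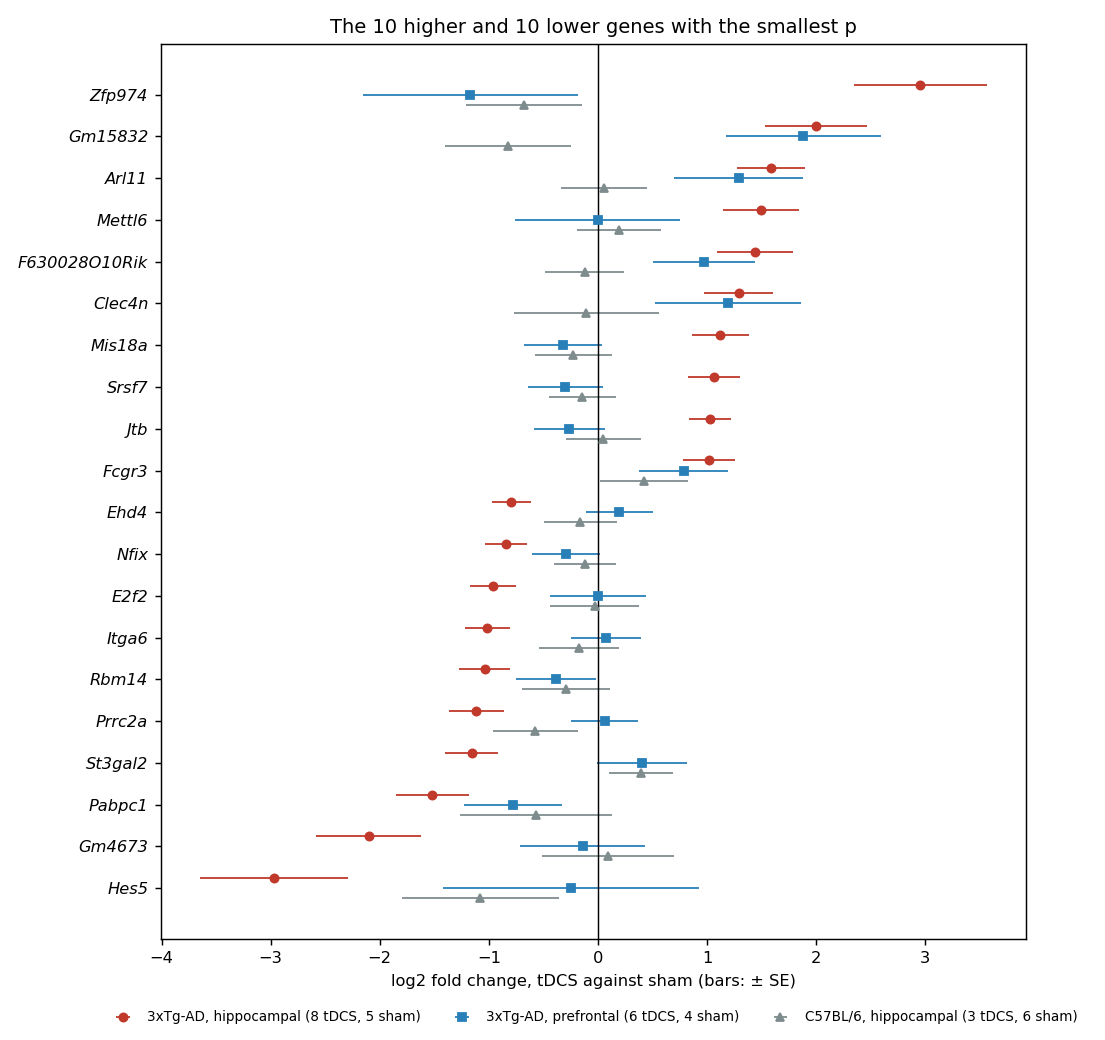
Log2 fold change of tDCS against sham ± SE for the 10 higher and 10 lower genes with the smallest p in hippocampal 3xTg-AD mice (circles), beside the same genes in prefrontal 3xTg-AD mice (squares) and hippocampal C57BL/6 mice (triangles). Arl11, Clec4n, Fcgr3 and Gm15832 lie above 0 with either electrode, while Jtb, Srsf7 and Mis18a lie at or below 0 in prefrontal mice.

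Over all genes, those with an unadjusted p under 0.05 in hippocampal 3xTg-AD mice were compared with the other mice, which share none of the 13. Of 1374 such genes tested with the prefrontal electrode, 818 (59.5%) had the same sign there, against 52.3% of all genes, and 105 (7.64%) had an unadjusted p under 0.05 there too, against 6.73% of all genes, with 75 of the same sign. In C57BL/6 mice 811 of 1388 (58.4%) had the same sign, against 52.2% of all genes, and 54 (3.89%) an unadjusted p under 0.05, against 3.29%, with 13 of the same sign. Both shares of small p were close to those of all genes. The 1374 genes hold 23 of the study's list described below, which was chosen in part on the prefrontal mice.

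DESeq2 called 24 genes beyond those with the smallest p and the 25 described below. Tlr4, the receptor for bacterial lipopolysaccharide (chromosome 4 from 66827584 to 66930284), ranged from 3.16 to 7.18 CPM, with a median of 5.06, after tDCS, and was at 1.41, 0.763, 1.49, 2.77 and 3.20 CPM in the sham mice. A single pair of mice overlapped, and the log2 fold change was 1.35 (SE 0.34, adjusted p 0.353 with edgeR, 0.0413 with DESeq2). Genes induced by interferon were among the higher ones, with Ifi204, a DNA sensor, at 3.33 to 7.54 CPM after tDCS against 1.39 to 3.11 CPM, and Samd9l at 7.94 to 20.4 against 5.94 to 9.42 CPM. The translation factor subunit Eif3e and the inhibitory G protein chain Gnai3 were higher by 0.75 and 0.65 on the log2 scale, with groups that did not overlap.

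Factors of the erythroid and megakaryocytic lineages stood among the genes that DESeq2 called as lower. Sox6, which silences embryonic globin genes, ranged from 13.8 to 28.7 CPM, with a median of 22.0, after tDCS, and was at 28.8, 46.2, 39.8, 43.3 and 30.7 CPM in the sham mice (log2 fold change -0.81, SE 0.21), and Zfpm1, the partner of GATA1, ranged from 29.0 to 65.3 CPM, with a median of 50.9, after tDCS, and was at 91.8, 105, 81.3, 67.3 and 80.3 CPM in the sham mice (log2 fold change -0.79, SE 0.20). In both, every tDCS mouse was below every sham mouse. Stom, a membrane protein of red cells, overlapped in part, with 63.6 to 121 CPM after tDCS against 111 to 177 CPM. Tln1, the talin that links integrins to actin in platelets and white cells, ranged from 70.4 to 183 CPM, with a median of 112, after tDCS, and was at 235, 242, 214, 209.6 and 203 CPM in the sham mice, and its groups did not overlap. Bach2, a repressor of plasma cell genes in B cells, had a log2 fold change of -1.04 and overlapped only through AQ, at 11.8 CPM. Dgkz, Gapvd1, Fam104a, Tbc1d10b, Cdk12, Yipf3, Atp6v0d1 and Gm47533 were also lower, and Emb, Emc2, Ms4a4c, Tmem156 and 6720427I07Rik higher.

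All 45 genes that DESeq2 called kept their sign with the haemoglobin share as covariate and in every fit that left out 1 mouse. They were chosen by a test of this very difference. In 13 of them every tDCS mouse was above every sham mouse (0.327% of all genes) and in 16 every tDCS mouse was below (0.276% of all genes). With the prefrontal electrode 29 of the 45 had the same sign (52.3% of all genes), 2 with an unadjusted p under 0.05 (6.73% of all genes). In C57BL/6 mice 27 had the same sign (52.2% of all genes), 0 with such a p (3.3% of all genes). Of the 45 genes, 6 are in the study's list described below, which the prefrontal mice helped to choose. Their agreement with the prefrontal electrode is therefore not independent.

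A list of 25 genes had been drawn up by the study from tDCS and sham 3xTg-AD mice of both electrodes together. The 13 mice here and the 10 prefrontal mice entered that choice, so the directions below are not independent evidence with either electrode. In hippocampal mice, 14 of the 25 were higher and 11 lower, and 23 had an unadjusted p under 0.05 (8.92% of all genes did). EdgeR called 0 (0% of all genes) and DESeq2 6 (0.288% of all genes). The groups did not overlap in 4, Fcgr3 and Tmpo (higher, 0.327% of all genes) and Cbfa2t3 and Ybx3 (lower, 0.276% of all genes). With the prefrontal electrode all 25 had the same sign (52.3% of all genes), 14 with an unadjusted p under 0.05 (6.73% of all genes). In C57BL/6 mice 21 had the same sign (52.2% of all genes), 0 with such a p (3.3% of all genes).

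The 14 higher genes of the list include receptors for cytokines, chemokines, immunoglobulin and bacterial products. Il1r2, the decoy receptor that binds interleukin 1 without signalling (chromosome 1 from 40074079 to 40125231), ranged from 5.1 to 34.5 CPM, with a median of 12.4, after tDCS, and was at 3.41, 1.27, 4.64, 5.34 and 6.98 CPM in the sham mice. The 2 lowest tDCS mice, M and N, were within the sham range, the other 6 above it, and the log2 fold change was 1.75 (SE 0.47, adjusted p 0.353 with edgeR, 0.0466 with DESeq2). Ccr1, a receptor for inflammatory chemokines, ranged from 6.37 to 33.4 CPM, with a median of 14.8, after tDCS, and was at 3.17, 6.97, 7.98, 7.91 and 10.3 CPM in the sham mice (log2 fold change 1.30, SE 0.38). Il13ra1, a chain of the receptor for interleukins 4 and 13, ranged from 6.42 to 21.4 CPM, with a median of 8.84, after tDCS, and was at 4.48, 6.36, 3.32, 4.87 and 7.46 CPM in the sham mice (log2 fold change 1.08, SE 0.32). In Ccr1 and Il13ra1 the mice AL, AM and AN were the highest.

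Casp4, the caspase that senses lipopolysaccharide inside cells (chromosome 9 from 5308828 to 5336783), ranged from 4.66 to 9.17 CPM, with a median of 5.72, after tDCS, and was at 3.06, 5.24, 2.18, 2.84 and 2.49 CPM in the sham mice, so that a single sham mouse, P, lay above 3 tDCS mice, with a log2 fold change of 1.04 (SE 0.28). Tlr13, an endosomal receptor for bacterial ribosomal RNA, ranged from 7.06 to 26.3 CPM, with a median of 14.7, after tDCS, and was at 10.4, 9.05, 7.35, 9.94 and 10.7 CPM in the sham mice (log2 fold change 0.78, SE 0.28). For Sirpb1b, of the signal-regulatory protein family, the log2 fold change was 1.23 (SE 0.38), and its reads may be shared with close family members, which was not tested. Tmpo, a protein of the nuclear lamina, ranged from 18.8 to 30.2 CPM, with a median of 24.7, after tDCS, and was at 17.4, 15.7, 14.0, 16 and 15 CPM in the sham mice (log2 fold change 0.65, SE 0.17), with a gap between the groups. Mrpl33, Cd52 and Vim, for a mitochondrial ribosome protein, a small surface glycoprotein of leukocytes and vimentin, had log2 fold changes of 1.04 (SE 0.28), 0.57 (SE 0.20) and 0.54 (SE 0.27).

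Stefins inhibit cysteine proteases such as cathepsins, and a cluster of stefin genes on mouse chromosome 16 is used by neutrophils. Stfa2l1 (chromosome 16 from 36156811 to 36161953) ranged from 12.4 to 78.6 CPM, with a median of 30.6, after tDCS, and was at 10.3, 8.49, 11, 27.6 and 26.7 CPM in the sham mice (log2 fold change 1.07, SE 0.45), and its neighbour Gm5483, now named Cstdc4 (chromosome 16 from 36184212 to 36188111), ranged from 13.6 to 59.6 CPM, with a median of 21.2, after tDCS, and was at 3.38, 7.93, 6.42, 19.1 and 23.4 CPM in the sham mice (log2 fold change 1.27, SE 0.49). Both were highest in AM, then AL. The 2 genes are shown by the last 100 bases of their RefSeq windows, aligned without gaps (chr16:36156757-36156856, plus strand, and chr16:36184162-36184261, plus strand), 79 of which are the same, with differences in capitals.
Stfa2l1: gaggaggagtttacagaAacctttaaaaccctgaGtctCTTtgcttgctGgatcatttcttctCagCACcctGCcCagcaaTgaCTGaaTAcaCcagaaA
Cstdc4: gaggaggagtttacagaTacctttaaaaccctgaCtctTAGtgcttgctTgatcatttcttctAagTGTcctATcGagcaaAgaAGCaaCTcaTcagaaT
Close copies can share reads, so the levels of single stefins are uncertain. The windows lie at the start of the genes and the libraries were 3′ libraries, and sharing of reads was not tested. Stfa1, next to them, was at 4.08 to 8.22 CPM (median 5.30) after tDCS and 0.508 to 4.07 CPM (median 1.57) in sham mice (log2 fold change 1.47, SE 0.40). In the whole list of stefins and cystatins, 7 of 10 genes were higher, 3 with an unadjusted p under 0.05, and the median log2 fold change was 0.35, against 0.02 for all genes. Of all genes 51.6% were higher, and 4.35% were higher with such a p. Stfa2l1 and Gm5483, among the 3, are in the study's list, which was chosen in part on these mice.

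Among the 11 lower genes of the list were Crat and Ogdh, enzymes of mitochondrial metabolism, and Pabpc1, Ybx3 and Ago2, which bind RNA. Crat, carnitine acetyltransferase, which moves acetyl groups between coenzyme A and carnitine (chromosome 2 from 30400471 to 30415813), ranged from 41 to 109 CPM, with a median of 57.3, after tDCS, and was at 143, 118, 107, 102 and 90.6 CPM in the sham mice. Q overlapped the sham mice and the other 7 tDCS mice were below all of them (log2 fold change -0.84, SE 0.22). Ogdh, of the oxoglutarate dehydrogenase complex, had the same shape, with Q at 108 CPM, the other tDCS mice at 46.9 to 73.7 CPM and the sham mice at 89.5 to 133 CPM (log2 fold change -0.79, SE 0.22). Ybx3, a cold-shock RNA-binding protein (chromosome 6 from 131364855 to 131388476), ranged from 904 to 1905 CPM, with a median of 1504, after tDCS, and was at 3224, 3101, 2185, 2127 and 3304 CPM in the sham mice (log2 fold change -0.89, SE 0.23). Ago2, which cuts target RNA under the guidance of microRNAs, ranged from 171 to 276 CPM, with a median of 192, after tDCS, and was at 287, 452, 293, 388 and 250.3 CPM in the sham mice (log2 fold change -0.71, SE 0.19), and only Q was above the lowest sham mouse. Cbfa2t3, a corepressor of erythroid and megakaryocytic genes, ranged from 7.96 to 21.6 CPM, with a median of 12.1, after tDCS, and was at 24, 24.3, 24.1, 24.6 and 24.8 CPM in the sham mice (log2 fold change -0.82, SE 0.22).

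Rnf123, a ubiquitin ligase, had a log2 fold change of -1.15 (SE 0.27), and T alone, at 14.7 CPM, lay above the lowest sham mouse. Ptp4a3, a phosphatase of the PRL family, had the weakest difference of the lower genes (log2 fold change -0.63, SE 0.24), with Q at 2107 CPM. In fits that each left out 1 mouse, no gene of the list turned its direction. Mical3, Sept1 and Ap1b1, of actin, septin and clathrin-coat biology, had log2 fold changes of -0.95 (SE 0.26), -0.88 (SE 0.23) and -0.71 (SE 0.21).

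**Figure D3:**
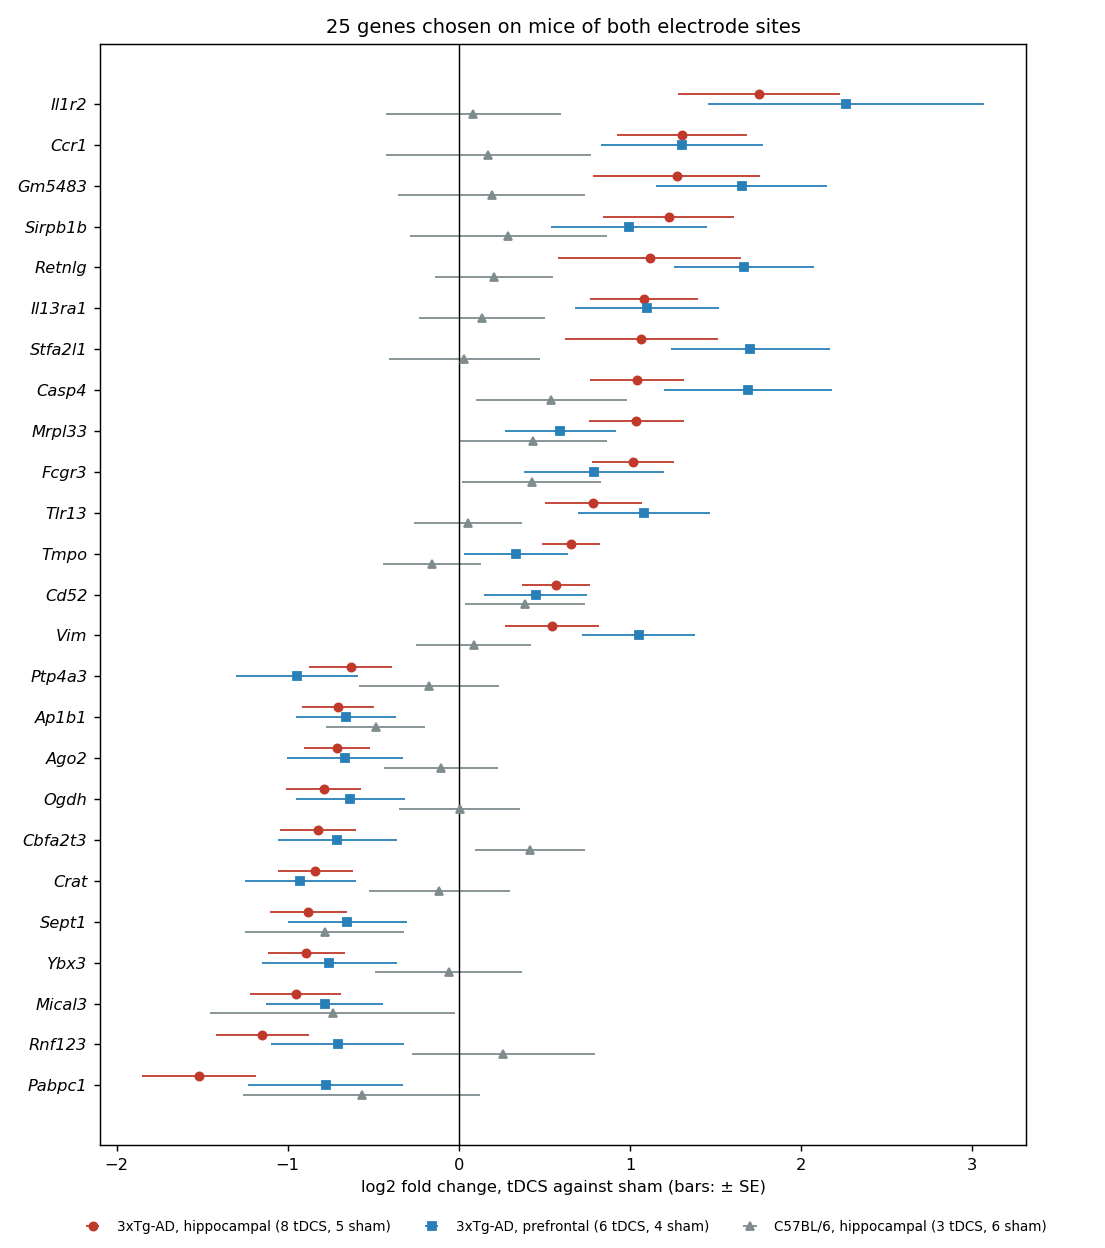
Log2 fold change of tDCS against sham ± SE for the 25 genes chosen by the study on 3xTg-AD mice of both electrodes, in hippocampal (circles) and prefrontal (squares) 3xTg-AD mice and in hippocampal C57BL/6 mice (triangles). Circles and squares lie on the same side of 0 in all 25 genes, from 1.75 for Il1r2 to -1.52 for Pabpc1 with the hippocampal electrode.

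For Crat, Ybx3 and Ago2 the levels of hippocampal C57BL/6 mice were put on one scale with those of the 3xTg-AD mice, which moves the 3xTg-AD values a little. Crat was at 95.4 to 151 CPM (median 111) in 3xTg-AD sham mice, 42.3 to 118 CPM (median 59.9) after tDCS and 12.1 to 54.1 CPM (median 25.4) in C57BL/6 sham mice. Ybx3 was at 2209 to 3477 CPM (median 3175), 956 to 2036 CPM (median 1558) and 495 to 1926 CPM (median 829.9) in the same groups, and Ago2 at 263 to 463 CPM (median 304), 181 to 297 CPM (median 202) and 71.6 to 186 CPM (median 119.5). In each gene the median of the tDCS mice lay between those of the 2 sham groups, and the ranges of tDCS and C57BL/6 sham mice overlapped. The study had singled out these 3 for differing both after tDCS and between the strains, with the same sham mice. This order is therefore not independent evidence. Not all genes of the study's list had it. Ccr1 had medians of 8.22 CPM in 3xTg-AD sham mice, 15.3 CPM after tDCS and 5.23 CPM in C57BL/6 sham mice. C57BL/6 mice after tDCS had medians of 26.9, 909 and 104 CPM.

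Cell type and pathway lists were read by their counts and medians, beside a median log2 fold change of 0.02 and a share of 51.6% of genes higher over all 15599 genes. An unadjusted p under 0.05 was reached by 8.92% of all genes, 4.35% higher and 4.57% lower. Counts of such genes in the lists below are to be read beside these shares, and several are near them. In all lists, higher and lower refer to the sign of the log2 fold change. In some members the median level went the other way. EdgeR called 0 genes in every list. The inflammasome, Toll-like, interleukin, Fc receptor, signal-regulatory, chemokine receptor, stefin, carnitine, poly(A) and microRNA lists hold genes of the study's list. Those genes were chosen in part on these mice, so the counts of these lists are not independent of that choice. All 16 genes of circulating neutrophils had a log2 fold change above 0 (median 0.81), 5 with an unadjusted p under 0.05, Clec4d, Il1b, G0s2, Clec4e and Slpi. For Trem1, Cxcr2 and Cxcr1 the median level was nevertheless lower after tDCS than in sham mice. It was 12.3 against 13.8 CPM, 29.1 against 30.3 CPM and 0.30 against 0.41 CPM. Il1b, the cytokine interleukin 1 beta, ranged from 66.3 to 141 CPM, with a median of 104, after tDCS, and was at 42.1, 44.8, 75.6, 89.9 and 63.5 CPM in the sham mice (log2 fold change 0.72, SE 0.24). S100a8 and S100a9, the calprotectin chains that fill neutrophil cytosol, had log2 fold changes of 0.91 (SE 0.58) and 0.87 (SE 0.55) and did not reach an unadjusted p under 0.05 (0.136 and 0.134). S100a8 ranged from 1484 to 13235 CPM, with a median of 4029, after tDCS, and was at 955, 807, 1090.0, 5207 and 4844 CPM in the sham mice. Sham mice S and AQ lay within the tDCS range and the other 3 sham mice below it. All 12 granule genes in the table had a log2 fold change above 0 as well (median 0.57), 2 with an unadjusted p under 0.05, Ctsg and Wfdc21. For Cebpe and Prtn3 the median level was lower after tDCS than in sham mice, 2.41 against 3.24 CPM and 0.398 against 0.406 CPM. Ctsg rests on few reads, 0 to 32 a mouse after tDCS and 0 to 2 in sham mice. With 1 mouse left out at a time the median of the granule genes ran from 0.27 (without AL) to 1.1 (without AQ). It was 1.17 without AQ and AM and 0.36 with name length as covariate.

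Summed over the 16 neutrophil genes, the level was 4182 to 31908 CPM after tDCS (median 10271) and 2335 to 12768 CPM in sham mice (median 3296). With the prefrontal electrode all 16 were higher too (median 0.88), and in C57BL/6 mice 12 of 16 (median 0.21). The mice differ in the length of their names. The 4 mice with names of 2 letters, AL, AM and AN after tDCS and AQ among sham mice, had the highest levels of Retnlg, a neutrophil hormone-like protein, of their groups, and for Il1r2 and Ccr1 likewise. Retnlg ranged from 230.3 to 1404 CPM, with a median of 385, after tDCS, and was at 75.2, 98.6, 169, 336 and 597 CPM in the sham mice, and AL, at 1404 CPM, stood far above the next. The labels do not say what the names stand for. With name length as a covariate the neutrophil median was 0.52, and over the 5 tDCS and 4 sham mice with names of 1 letter it was 0.44. Under these 2 settings Il1r2 had log2 fold changes of 1.42 and 1.30, Retnlg of 0.82 and 0.86, and Jtb of 1.03 and 1.06. The part of name length in the group differences was not tested beyond these settings.

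**Figure D4:**
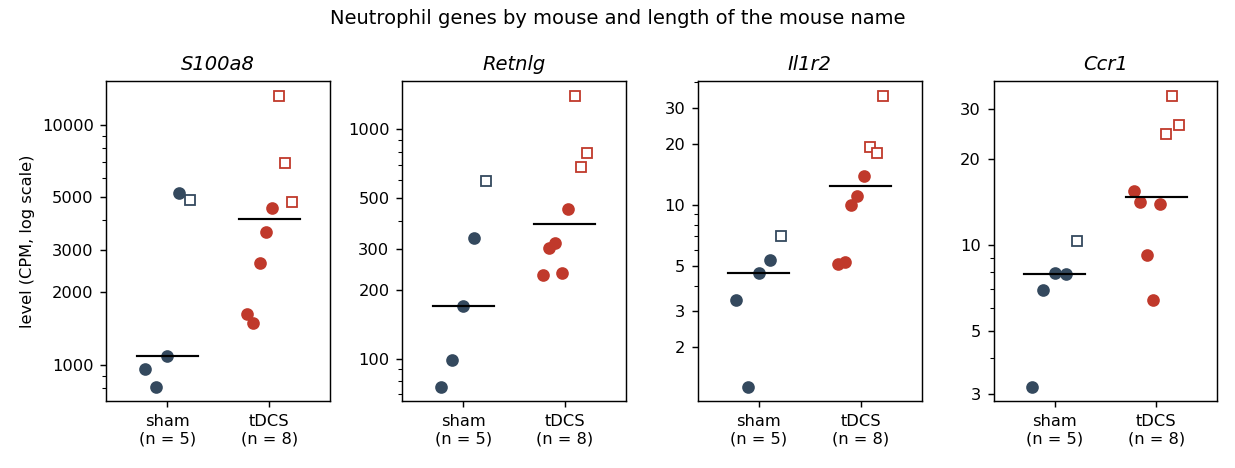
Levels of 4 neutrophil genes in single mice, in CPM on a log axis, with the median as a bar. Open squares are the mice with names of 2 letters (3 tDCS, 1 sham) and filled circles those with 1 letter (5 tDCS, 4 sham), and the squares are the highest of their group for Retnlg, Il1r2 and Ccr1.

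Most genes of innate sensing were also higher. In the inflammasome list 10 of 14 genes were higher (median 0.35), 4 with an unadjusted p under 0.05, Casp4, Casp1, Il1b and Mefv. Casp1, which cuts the interleukin 1 beta precursor, was at 8.12 to 21.8 CPM (median 8.78) after tDCS and 3.36 to 8.10 CPM (median 6.89) in sham mice with no overlap (log2 fold change 0.96, SE 0.31), and Mefv, for pyrin, had a log2 fold change of 1.13 (SE 0.38). Of the Fc receptors and oxidase subunits 14 of 15 were higher (median 0.22), and besides Fcgr3 only Tyrobp, the adaptor of activating receptors, had an unadjusted p under 0.05 (log2 fold change 0.52, SE 0.24). For Fcgr2b, Fcgr4 and Cybb the median level was lower after tDCS than in sham mice. It was 3.40 against 3.44 CPM, 61.4 against 69.3 CPM and 107 against 130 CPM. Of the Toll-like receptors and adaptors 15 of 21 were higher (median 0.13), with Tlr4, Tlr13 and Tlr6 under that p, while Unc93b1, which carries the endosomal receptors from the endoplasmic reticulum, was lower (log2 fold change -0.69, SE 0.24). The Toll-like median was 0.24 with the haemoglobin share as covariate and 0.06 with name length as covariate. In mice with names of 1 letter it was 0.01, beside 0.02 for all genes.

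Genes of interleukins 1, 4, 13 and 18 were higher in 10 of 15 cases (median 0.34). Those with an unadjusted p under 0.05 were Il1r2, Il13ra1, Il1b and Il1rn, the receptor antagonist (log2 fold change 0.64, SE 0.29), all higher, and the kinase Jak1, lower (log2 fold change -0.46, SE 0.19). The list's median was 0.06 with the haemoglobin share as covariate, 0.07 with name length as covariate and -0.08 in mice with names of 1 letter. In the signal-regulatory list 4 of 5 genes were higher (median 0.78), and Cd47, the ligand of Sirpa on red cells, was lower (log2 fold change -0.39, SE 0.18). Monocyte genes had a median of 0.30 with 12 of 15 higher, and 0 reached an unadjusted p under 0.05. Chemokine receptors were divided, 10 higher and 10 lower (median -0.03), and besides Ccr1 only Ccr6, lower, had an unadjusted p under 0.05 (log2 fold change -0.78, SE 0.36).

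Interferon-stimulated genes were higher in 21 of 25 cases (median 0.43), and 4 of these had an unadjusted p under 0.05, Rtp4, Oasl2, Ifit1 and Ifi27l2a. Rtp4 was at 2.94 to 31.3 CPM (median 9.5) after tDCS and 3.17 to 6.25 CPM (median 4.62) in sham mice (log2 fold change 1.30, SE 0.43) and Ifit1 at 8.47 to 48.1 CPM (median 25.8) after tDCS and 12.2 to 15.9 CPM (median 15.3) in sham mice (log2 fold change 0.80, SE 0.31), with overlap in each. Rsad2, which encodes viperin and had levels far above the other members, was lower after tDCS. It ranged from 3393 to 11802 CPM, with a median of 7933, after tDCS, and was at 10753, 12380.5, 8532, 11948 and 21509.5 CPM in the sham mice, a log2 fold change of -0.79 (SE 0.33). The summed level of the list follows Rsad2 and was 4636 to 12519.7 CPM after tDCS (median 8560.0) and 9147 to 22551 CPM in sham mice (median 12527). With the prefrontal electrode 11 of 25 were higher (median -0.19).

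Lymphocyte lists differed from one another. All 14 B cell genes were lower (median -0.40), 2 with an unadjusted p under 0.05, Pax5 (log2 fold change -0.78, SE 0.33) and Ebf1 (log2 fold change -0.59, SE 0.28), the factors that fix B cell identity, and the median was -0.65 without AQ and AM. The summed B cell level was 338 to 750.4 CPM after tDCS (median 457) and 404 to 866 CPM in sham mice (median 681). Of the T cell genes 10 of 16 were higher (median 0.29), and the 4 with an unadjusted p under 0.05 were chains of the T cell receptor complex, Cd3g (log2 fold change 1.10, SE 0.34), Trbc1, Trbc2 and Cd3d. Cd3e, a chain of the same complex, lay below 0 (log2 fold change -0.39, SE 0.34), and Cd4 and Cd8a had log2 fold changes of 0.06 (SE 0.30) and -0.01 (SE 0.25). With the haemoglobin share as covariate the T cell median turned to -0.23. All 12 NK cell genes had a log2 fold change above 0 (median 0.70), with Gzma, for granzyme A, at an unadjusted p under 0.05 (log2 fold change 0.77, SE 0.33). For Klrk1 and Nkg7 the median level was lower after tDCS than in sham mice, 0.959 against 1.01 CPM and 26.7 against 28.3 CPM. With the haemoglobin share as covariate the NK cell median was 0.41. The summed NK cell level was 34.0 to 99.6 CPM after tDCS (median 74.9) and 39.7 to 69.1 CPM in sham mice (median 55.8), and 2 of 12 were higher with the prefrontal electrode (median -0.55).

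**Figure D5:**
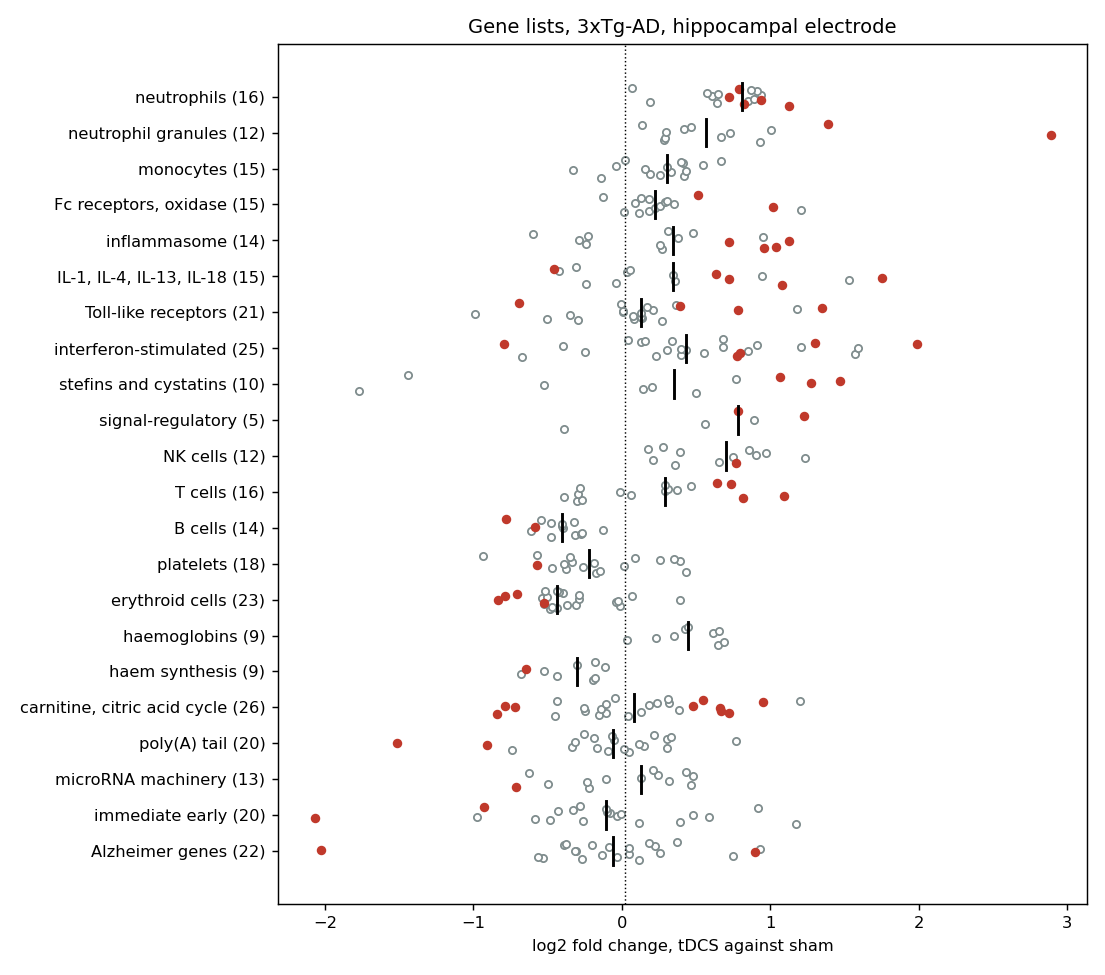
Log2 fold change of tDCS against sham for the tested members of 22 gene lists in hippocampal 3xTg-AD mice, with the number of members in brackets, the median of each list as a bar and the median of all genes as a dotted line. Filled points have an unadjusted p under 0.05. Neutrophil and NK cell genes all lie above 0 and B cell and haem synthesis genes all below.

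Red cell genes and haemoglobins differed in direction. Of 23 erythroid genes 21 were lower after tDCS (median -0.44), and Slc4a1, for the anion exchanger of the red cell membrane, Gata1, the main erythroid transcription factor, Kel, for a blood group antigen, and Sptb, for a spectrin chain, had an unadjusted p under 0.05. Gata1 was at 22.6 to 36.5 CPM (median 28.1) after tDCS and 33.7 to 47.9 CPM (median 42.7) in sham mice (log2 fold change -0.53, SE 0.18) and Slc4a1 at 1004 to 2714 CPM (median 1983) after tDCS and 2639.9 to 4014 CPM (median 3299) in sham mice (log2 fold change -0.79, SE 0.26). All 9 enzymes of haem synthesis were lower (median -0.30). The 9 haemoglobin genes, which the authors had depleted in part, were all higher (median 0.44), 0 with an unadjusted p under 0.05. With 1 mouse left out at a time their median ran from 0.28 (without T) to 0.77 (without AQ), and it was 0.91 without AQ and AM. The erythroid median was -0.10 without AQ and AM and 0.00 in mice with names of 1 letter, and that of haem synthesis was 0.00 and 0.03.

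In the list of the carnitine shuttle, pyruvate dehydrogenase and the citric acid cycle 14 of 26 genes were higher and 12 lower (median 0.08), with 9 at an unadjusted p under 0.05, a share above the 8.92% of all genes. The 3 lower ones were the abundant Crat, Ogdh and Mdh2, for mitochondrial malate dehydrogenase (log2 fold change -0.72, SE 0.21). Crat and Ogdh are in the study's list, chosen in part on these mice, so that share is not independent of the choice. The 6 higher ones were Sdhd, a membrane anchor of succinate dehydrogenase (log2 fold change 0.95, SE 0.31), Idh3b, Crot, Sucla2, Pdha1 and Dld. The summed level was 347 to 575 CPM after tDCS (median 427) and 498 to 589 CPM in sham mice (median 554). Of the poly(A) list, 9 of 20 were higher (median -0.06), and besides Pabpc1 only Eif4g1, the scaffold that joins cap and tail of mRNA, had an unadjusted p under 0.05 (log2 fold change -0.91, SE 0.34). Of the microRNA machinery 7 of 13 were higher (median 0.13), and Ago2 alone had such a p.

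Immediate early genes, which respond within minutes to many signals, were higher in 6 of 20 cases (median -0.10). Egr3 (log2 fold change -2.07, SE 0.51) and Ppp1r15a (log2 fold change -0.93, SE 0.31) were lower with an unadjusted p under 0.05, and Fos, Junb and Dusp1 had log2 fold changes of 0.59 (SE 0.53), -0.10 (SE 0.24) and 0.40 (SE 0.27). Egr3 was low, at 0.192 to 1.08 CPM (median 0.636) after tDCS and 0.526 to 5.49 CPM (median 3.00) in sham mice. Genes raised by glucocorticoids were higher in 5 of 13 cases (median -0.14), 0 with such a p. Of 22 genes of amyloid processing and Alzheimer risk 10 were higher (median -0.06), among them Cd33, for a sialic acid receptor of myeloid cells (log2 fold change 0.90, SE 0.40). App, the mouse gene or reads shared with the human transgene, had a log2 fold change of 0.75 (SE 0.41), and Mapt, lower with an unadjusted p under 0.05, had only 0 to 14 reads a mouse.

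The same lists were also read in the other mice. Erythroid genes were higher in 10 of 23 with the prefrontal electrode (median -0.07) and 18 of 23 in C57BL/6 mice (median 0.32), genes of haem synthesis in 7 of 9 with the prefrontal electrode (median 0.30) and 8 of 9 in C57BL/6 mice (median 0.24), and haemoglobin genes in 1 of 9 with the prefrontal electrode (median -0.36) and 5 of 9 in C57BL/6 mice (median 0.39). B cell genes were higher in 1 of 14 with the prefrontal electrode (median -0.20) and 2 of 14 in C57BL/6 mice (median -0.25), T cell genes in 10 of 16 with the prefrontal electrode (median 0.16) and 8 of 16 in C57BL/6 mice (median -0.0029), and neutrophil granule genes in 11 of 12 with the prefrontal electrode (median 1.43) and 10 of 12 in C57BL/6 mice (median 0.52). The difference of a list's median between these sets of mice was not tested.

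Single mice moved the medians of several lists. With 1 mouse left out at a time, the median of the stefins ran from 0.18 (without AN) to 0.74 (without O), that of the interleukin list from 0.08 (without AM) to 0.47 (without Q) and that of the monocyte genes from 0.12 (without Z) to 0.41 (without AN). For erythroid genes it ran from -0.52 (without T) to -0.19 (without AQ), for haem synthesis from -0.45 (without T) to -0.03 (without AQ) and for platelets from -0.30 (without AL) to -0.01 (without AQ). The median of the neutrophil genes ran from 0.54 (without AL) to 0.98 (without AQ), that of the B cell genes from -0.55 (without AQ) to -0.32 (without AL), that of the T cell genes from 0.16 (without M) to 0.39 (without AL) and that of the interferon-stimulated genes from 0.30 (without M) to 0.65 (without AQ). The medians of the Fc receptor, Toll-like, basophil and eosinophil and skeletal muscle lists ran from 0.12 (without AL) to 0.32 (without AQ), 0.04 (without AL) to 0.15 (without M), 0.14 (without Z) to 0.65 (without S) and 0.26 (without T) to 1.24 (without R). Without AQ and AM the median was 0.71 for interferon-stimulated genes, 0.17 for the interleukin list, 0.18 for T cells, 0.42 for monocytes, -0.10 for platelets, 0.59 for skeletal muscle and 0.81 for neutrophils. The medians of the immediate early, chemokine receptor, poly(A), microRNA, coagulation, Alzheimer and keratinocyte lists lay on both sides of 0 when 1 mouse was left out.

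Of the other lists, platelet genes were higher in 6 of 18 cases (median -0.22), and Itga2b, for the platelet integrin chain, had an unadjusted p under 0.05 (log2 fold change -0.57, SE 0.26). Synaptic plasticity genes, of which 11 of 19 were in the table, had a median of -0.15, with Camk2d alone at such a p (log2 fold change -0.76, SE 0.25). Genes of MHC class I presentation had a median of 0.10, those of basophils and eosinophils 0.45, and the coagulation genes that the study lists -0.06, where Dmtn, for a red cell cytoskeleton protein (log2 fold change -1.04, SE 0.31), and Serpine2, for a protease inhibitor (log2 fold change -0.56, SE 0.21), had such a p. Keratinocyte genes, which mark skin in a blood sample, were spread over single mice, with a summed level of 21.2 to 1426 CPM after tDCS (median 88.6) and 12.1 to 551 CPM in sham mice (median 55.5) and a median of 0.06, and skeletal muscle genes stayed at a summed level of at most 11.2 CPM (median 0.90).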

How the data were processed

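Blood RNA was sequenced from single mice. The authors depleted globin RNA, made 3′ libraries with a QuantSeq kit, sequenced them on Ion Proton, trimmed reads with cutadapt 1.14, aligned them to mm10 with STAR 2.6 and deposited raw counts of reads per gene, filtered for low genes. The counter's strand setting is not given in the sources used here, so overlapping genes (Crat and Dolpp1, Ago2 and Chrac1, Nfix and Lyl1, Mettl6 and Eaf1, Rbm14 and Gm21992, Tln1 and Creb3) are uncertain. Close paralogs (stefins, Sirpb1 genes, haemoglobins) are uncertain too. Names and positions came from GENCODE M21 on GRCm38 (15607 of 15613 IDs matched, 14873 in the same version) and promoters from RefSeq.

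Groups came from the labels, and each mouse is 1 replicate. Genes without a read in the fitted mice were left out, and the others tested by edgeR 4.0.16's quasi-likelihood test with TMM scaling and Benjamini-Hochberg adjustment (R 4.3.3, threshold 0.05), and SE was taken as the log2 fold change over root F. The script was tested on simulated data. RNA integrity numbers, a covariate of the study, were not used here. Alternatives were DESeq2 1.42.0's likelihood ratio test (independent filtering at 0.1), RLE scaling, filterByExpr, limma 3.58.1's voom with sample weights, leaving out each mouse, haemoglobin share as covariate, haemoglobin genes left out, 1 surrogate variable (sva 3.50.0), all 42 mice in one fit, leaving out AQ and AM and, chosen after seeing the data, name length as covariate and the mice with 1-letter names alone. Named genes were the 10 higher and 10 lower with the smallest p, those DESeq2 called, the study's 25 and the 3 members with the highest level of each list. List members with an unadjusted p under 0.05 and other members were named after their values were seen. Values of a few genes are not reported here. The comparison and the lists were chosen with earlier results of these data known.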

Additional observations from a re-analysis of the deposited data

Results flagged for a closer look

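In 96 sets of values, each a gene or library measure in the tDCS or the sham mice, the highest and the lowest mouse were set against the rest, and 9 sets held a mouse far from the others, where chance flags about 1 in 20. Arl11 was at 9.94 CPM in tDCS mouse Z, with the next tDCS mouse at 5.75 CPM, and F630028O10Rik at 63.4 CPM in Z, above all other tDCS mice. Mouse Q was the highest tDCS mouse for 3 genes lower after tDCS, at 109 CPM for Crat (next 66.8 CPM), 108 CPM for Ogdh (next 73.7 CPM) and 2107 CPM for Ptp4a3 (next 1268 CPM). Retnlg was at 1404 CPM in tDCS mouse AL, with the next at 786 CPM. Among sham mice, P was highest for Gm4673, at 11.4 CPM with the next at 4.88 CPM, and lowest for Jtb, at 4.27 CPM with the next at 6.00 CPM. Sham mouse R had reads on 15251 genes, with the next sham mouse at 14464 genes.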

How the results depend on the processing

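No paired analysis was possible because the mice carry only letter names and no replicate numbers shared between groups. EdgeR and limma called 0 genes in the hippocampal comparison under every setting run, and DESeq2 called 45. DESeq2 called 8 genes with the prefrontal electrode and 1 for the difference between the electrodes. It was run on all mice of a comparison only. With edgeR, prefrontal calls were 0 with all mice and 0 to 1 when 1 mouse was left out. Genes with an unadjusted p under 0.05 numbered 1033 (without sham mouse P) to 1481 (without sham mouse AQ) when 1 mouse was left out. Over 151 named genes, 77 values turned their direction, 44 passed the threshold under an alternative and 3498 did neither, and the cause was not tested. The log2 fold changes that turned follow. With 1 surrogate variable they were Dsp -0.32, Prg2 0.13. With DESeq2 they were Dsp -2.22, Krt15 -0.89. With name length as covariate they were BC100530 -0.022, Bin1 -0.050, Creb1 0.029, Dsp -2.13, Junb 0.026, Krt15 -0.25. With limma voom they were B2m -0.14, Bin1 -0.100, Cd9 -0.084, Creb1 0.042, Dsp -0.76, H2-D1 -0.073, H2-K1 -0.063, Myd88 -0.040. In mice with 1-letter names they were Alas2 0.029, BC100530 -0.53, Bin1 -0.34, Bpgm 0.000815, Cxcr2 -0.063, Dsp -2.81, Gata2 0.12, Krt15 -0.81, Myd88 -0.082, Nkg7 -0.031, Picalm 0.068, Prg2 0.25, Sfn -0.11, Urod 0.24. With the haemoglobin covariate they were Bin1 -0.22, Ccr3 -0.19, Cxcr4 0.036, Hba-a1 -0.46, Hbb-bs -0.11, Hbb-bt -0.050, Il7r -0.27, Nkg7 -0.037, Npy 0.074, Trac -0.14. Without AQ and AM they were Bin1 -0.30, H2-K1 -0.012, Nkg7 -0.034, Picalm 0.13, Prg2 0.32, Urod 0.060. When 1 mouse was left out the lowest and highest were B2m -0.061 and 0.20, BC100530 -0.63 and 2.18, Bin1 -0.18 and 0.26, Ccr3 -0.17 and 0.69, Creb1 -0.13 and 0.077, Dsp -2.38 and 2.15, Gata2 -0.16 and 0.069, H2-D1 -0.15 and 0.18, H2-K1 -0.054 and 0.24, Junb -0.25 and 0.17, Krt15 -0.91 and 2.38, Myd88 -0.041 and 0.24, Ngp -0.30 and 1.09, Picalm -0.16 and 0.11, Prg2 -0.57 and 0.32, Sfn -0.18 and 1.24, Tsc22d3 -0.19 and 0.14. Of the library measures, tDCS minus sham, genes with a read ran from -196.7 to 71.5, tDCS minus sham, mitochondrial percent from -0.919 to 0.821 and tDCS minus sham, total reads from -1664410 to 2938380. Depth and the number of mice limit low genes such as Zfp974, Hes5, Mapt and Ctsg.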
